A study of Homo sapiens with 4 samples.

Results

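Human genes for copying DNA and for making its building blocks were followed in EJM myeloma cells after a super-repressor form of IκBα was switched on for 1, 2, 3 or 4 days. The set was a list of 57 genes from origin licensing, the replication fork and nucleotide synthesis, chosen by symbol for their known roles. Of these, 38 had a named probe on the array, and 36 had a value on at least 3 of the 4 arrays (each of the 36 had a value on all 4), out of 7713 features measured to the same standard. Among those without a named probe here were all 6 subunits of the origin recognition complex (ORC1 to ORC6), MCM3, MCM6, CDC45, GINS1, GINS2, TYMS, E2F1 and CCNE2. LIG1 and MCM10 had probes but too few values.

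EJM is an established multiple myeloma cell line, a tumour of antibody-secreting plasma cells. IκBα keeps NF-κB factors out of the nucleus, and the super-repressor is built to resist the breakdown that normally releases them. Induced cells carried the super-repressor under control of the tetracycline repressor and were kept for 1, 2, 3 or 4 days at 37 °C with doxycycline at 20 µg/ml (Cy5 channel, 1 array a day). Uninduced cells carried the same construct and received none of the agent as far as the labels say (Cy3 channel, the same description on all 4 arrays). The sources used here do not say whether the line was 1 clone or whether the arrays shared 1 control RNA preparation. An effect of doxycycline itself, or of time in culture, cannot be told apart from that of the super-repressor in this design. The cells' identity cannot be checked from levels, because a ratio carries none.

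Before a cell enters S phase, the origin recognition complex, CDC6 and CDT1 load the MCM2-7 ring onto DNA, a step called licensing. CDC7, CDC45, MCM10 and the GINS complex then turn that ring into a running helicase, and polymerases α, δ and ε copy the strands behind it with the sliding clamp PCNA. Ribonucleotide reductase, thymidylate synthase and thymidine kinase supply deoxynucleotides, while the de novo enzymes build purine and pyrimidine rings for RNA as well as DNA. Many of the licensing, fork and deoxynucleotide genes are targets of E2F factors and are transcribed around the start of S phase.

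Values are log2 of induced over uninduced cells, averaged over a gene's probes on each array, so a negative value means lower in induced cells. The deposited table states neither the direction nor the base of the ratio. The direction was taken from the dyes, and if the ratio ran the other way each sign below would be inverted. Base 2 was taken, and with natural logs every fold would be larger. Values were present for 67.7% to 91.0% of 15246 probes. The day 1 and day 2 arrays had fewer values and a wider spread, with an SD over probes of 0.517 and 0.569, against 0.345 and 0.380 on days 3 and 4. Each day is a single array with no replicate check, and the number of arrays limits the precision.

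Most replication genes lay near or above 0 after 1 day of induction and below 0 on each later day. The 36 genes had medians of 0.086, -0.20, -0.26 and -0.31 on days 1 to 4. Over all features tested the median was -0.062, -0.081, 0.017 and 0.012 on the same days. Of the 36 genes, 15, 29, 29 and 34 were below 0 on days 1 to 4, where 55.9%, 58.3%, 47.0% and 48.4% of all features were below 0. In these bulk samples, fewer cells in S phase and less RNA per cell cannot be told apart.

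**Figure D1:**
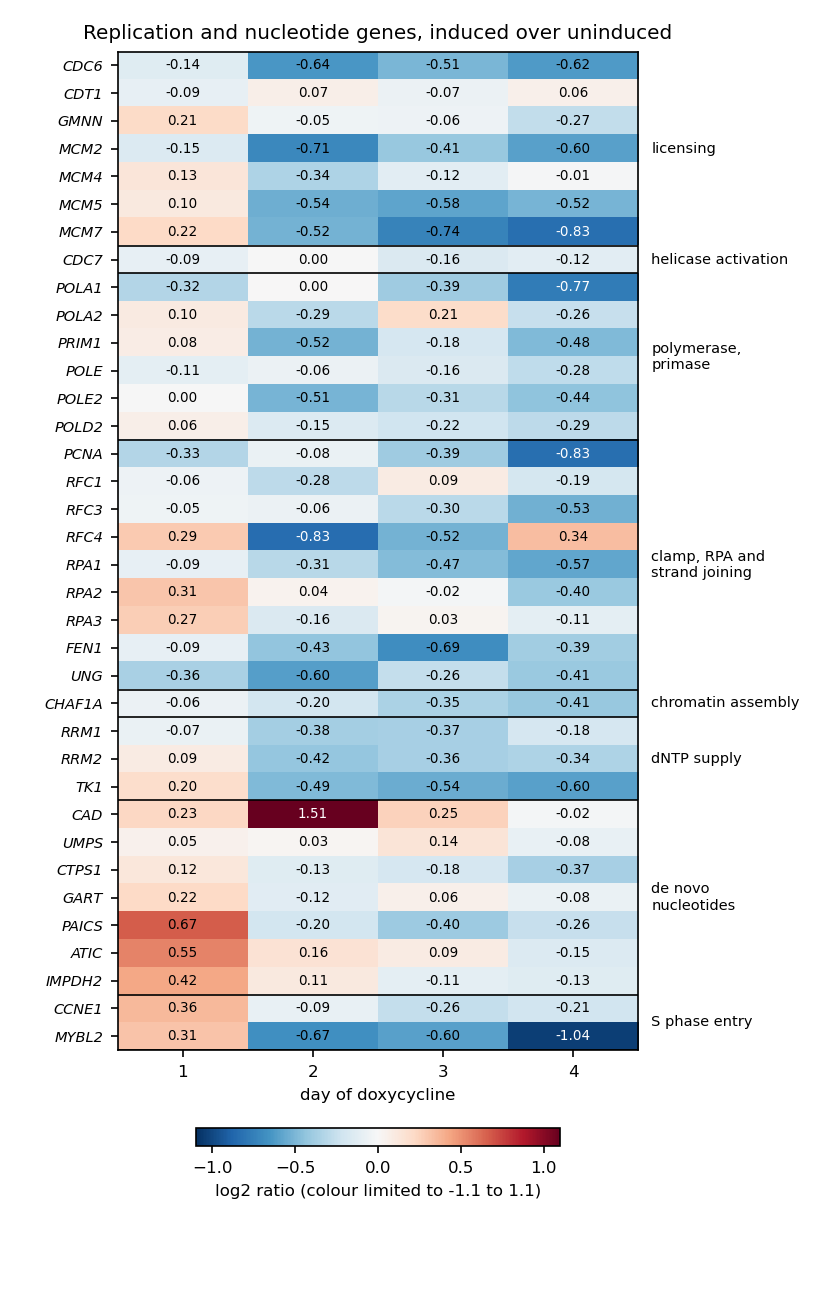
Log2 ratio of induced over uninduced cells for the 36 measured genes (rows, by role) on days 1 to 4 of doxycycline (columns, 1 array each); blue is lower and red is higher in induced cells. The day 1 column is mixed, with a median of 0.086, while 34 of 36 values on day 4 are below 0; CAD on day 2, at 1.51, is past the end of the colour scale.

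Among the licensing genes, CDC6, MCM2, MCM5 and MCM7 lay well below 0 from day 2 on, while CDT1, GMNN and MCM4 stayed nearer to 0. CDC6, the ATPase that recruits the helicase to origins, read -0.14, -0.64, -0.51 and -0.62 on days 1 to 4. Its average was thus below 0 throughout with day 1 nearest to 0, but its probes read -0.35 and 0.08 on day 1. MCM2, a helicase subunit, read -0.15, -0.71, -0.41 and -0.60. MCM5 read 0.105, -0.54, -0.58 and -0.515, and MCM7 read 0.22, -0.52, -0.74 and -0.83. All 3 helicase subunits were lower on each later day than on day 1. MCM4, another subunit of the same ring, stayed closer to 0 with 0.13, -0.34, -0.12 and -0.009. The proteins that limit licensing to once per cycle were also near 0. CDT1, the loader that geminin binds, read -0.094, 0.067, -0.065 and 0.059, and GMNN (geminin) read 0.21, -0.047, -0.059 and -0.27. The 7 licensing genes had medians of 0.105, -0.52, -0.41 and -0.515. The 1 helicase-activating gene measured was the kinase CDC7, with 5 probes, which stayed between -0.16 and -0.0028.

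Among the 6 polymerase and primase genes no value lay 1.5-fold away from 0 on days 1, 2 or 3. POLA1, the catalytic subunit of polymerase α, read -0.32, 0, -0.39 and -0.77. PRIM1, the small primase subunit, read 0.080, -0.52, -0.18 and -0.48, and POLE2, a polymerase ε subunit, read -0.004, -0.51, -0.31 and -0.44. Both had the lowest value on day 2. The POLE2 probe with all 4 values, 35550, read -0.11 on day 3 and -0.362 on day 4. POLD2, a polymerase δ subunit, read 0.062, -0.15, -0.22 and -0.29, and POLE, the catalytic subunit of polymerase ε, lay between -0.28 and -0.061. POLA2, the second subunit of polymerase α, was mixed in sign, with 0.103, -0.29, 0.21 and -0.26. All 6 were below 0 on day 4, where their median was -0.37.

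Of the 9 genes of the clamp, its loader, the single-strand binding complex and strand processing, 8 had a mean below 0. FEN1, the nuclease that trims Okazaki fragments, read -0.086, -0.43, -0.69 and -0.39. RPA1, the large subunit of the single-strand binding protein RPA, read -0.093, -0.31, -0.47 and -0.57, further from 0 on each later day. UNG, which removes uracil from DNA, read -0.36, -0.60, -0.26 and -0.41 and was the member with the lowest day 1 value. The other RPA subunits read higher than RPA1 on each day: RPA2 read 0.31, 0.042, -0.022 and -0.40, and RPA3 read 0.27, -0.16, 0.026 and -0.11. The clamp loader genes were uneven too. RFC3 read -0.047, -0.060, -0.30 and -0.53, while RFC1 stayed between -0.285 and 0.094. On day 2 RFC3 probes 17200 and 27701 read -0.503 and 0.382. CHAF1A, a subunit of the factor that places histones on new DNA, read -0.064, -0.20, -0.35 and -0.41. Its probes differed, with 29902 at -0.448 and 31080 at 0.302 on day 1.

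PCNA, the sliding clamp, averaged -0.33, -0.077, -0.39 and -0.83, but its 3 probes had values on different days. Probe 15940, the one with all 4 values, read -0.105, -0.077, -0.115 and -0.609, so its day 4 value stood apart from the other days. RFC4 has no probe with all 4 values. Its days 1 to 3 come from probe 16731 (0.29, -0.835 and -0.52) and its day 4 value of 0.34 from probe 24832, so its average does not follow 1 probe over time. MCM2 probes also disagreed: 16555 read -0.13, -0.92, -0.89 and -0.94, whereas 29890, with values on days 3 and 4, read 0.127 and 0.115. Of 62 probes of these genes with values on all 4 arrays, 47 (75.8%) had a mean below 0, against 54.4% of 9242 such probes on the array. For 53 of the 62 (85.5%) the mean of days 2 to 4 was below the day 1 value, against 52.1% of all such probes.

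**Figure D2:**
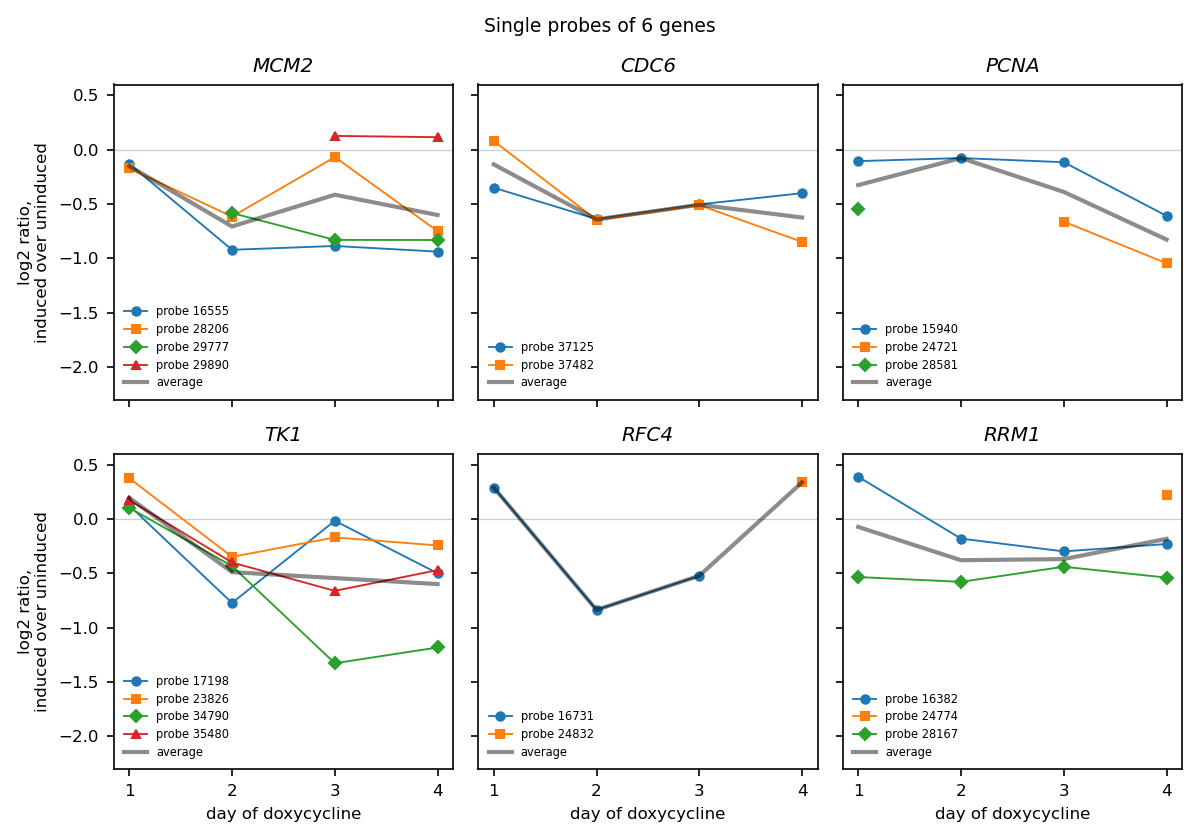
Log2 ratio of induced over uninduced cells against day of doxycycline for single probes of MCM2, CDC6, PCNA, TK1, RFC4 and RRM1; thin lines join the values of a probe and the thick grey line is the average used for the gene. The averages of PCNA, RFC4, MCM2 and RRM1 rest on different probes on different days, while all 4 TK1 probes are above 0 on day 1 and below 0 on days 2 to 4.

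The deoxynucleotide genes were lower on each of days 2 to 4 than on day 1. TK1, the cytosolic thymidine kinase, read 0.20, -0.49, -0.54 and -0.60. All 4 of its probes were above 0 on day 1 and below 0 on each later day, although probe 34790 (-1.33 on day 3) read far lower than the rest. RRM2, the regulated subunit of ribonucleotide reductase, read 0.092, -0.42, -0.36 and -0.34. The RRM2 probes differed on day 1, at 0.418 for 17123 and -0.234 for 30831, and 30831 was below 0 on all 4 days. RRM1, the large subunit of the reductase, read -0.072, -0.38, -0.37 and -0.18, and its probes differed on day 1 (0.390 for 16382 and -0.533 for 28167). The RRM1 average on day 4 also takes in probe 24774 (0.223), which had a value on that day alone. Over its 2 probes with all 4 values RRM1 read -0.3835 on day 4. The median of the 3 was 0.092, -0.42, -0.37 and -0.34.

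Among the 36 genes, the 4 with the highest single values were de novo genes: CAD, PAICS, ATIC and IMPDH2. On day 1 all 7 were above 0, with a median of 0.23, led by PAICS (0.67) and ATIC (0.55), both purine enzymes, and by IMPDH2 (0.42), which makes the guanine nucleotide precursor. CAD, which starts pyrimidine synthesis, read 0.23, 1.51, 0.25 and -0.022 from 1 probe, so its mean of 0.49 rests on day 2 and is 0.15 without that array. On day 4 all 7 were below 0, from -0.37 for CTPS1 (CTP synthase) to -0.022 for CAD, with a median of -0.13. PAICS was below 0 from day 2 (0.67, -0.20, -0.40 and -0.255), IMPDH2 from day 3 (0.42, 0.11, -0.106 and -0.133) and ATIC on day 4 (0.55, 0.16, 0.090 and -0.154). The PAICS probe with all 4 values, 16623, read -0.445 on day 3 and -0.015 on day 4. Probe 28759 of PAICS had values on days 3 and 4 alone, at -0.349 and -0.495. GART and UMPS stayed between -0.124 and 0.22. The licensing, deoxynucleotide and de novo groups thus had medians of -0.52, -0.42 and 0.025 on day 2, of -0.41, -0.37 and 0.060 on day 3, and of -0.515, -0.34 and -0.13 on day 4. On day 1 the medians of these groups were 0.105, 0.092 and 0.23. Their median slopes on day were -0.13, -0.12 and -0.19 per day, so the de novo genes also fell with day. These differences between groups of genes were not tested.

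**Figure D3:**
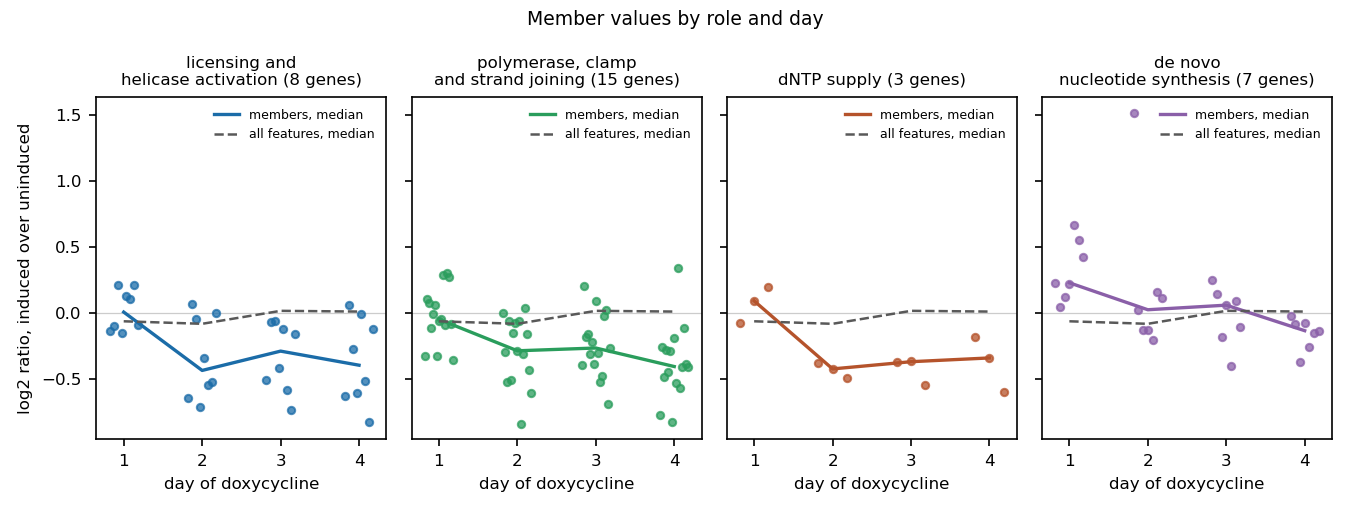
Log2 ratio of induced over uninduced cells by day of doxycycline for licensing and helicase activation, polymerase and clamp, deoxynucleotide (dNTP) and de novo synthesis genes; points are genes, solid lines their median and dashed lines the median of all features tested. On day 2 the deoxynucleotide median is -0.42 and the de novo median 0.025; on day 4 the de novo median is -0.13.

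The regulators of S phase entry were represented by CCNE1 and MYBL2. MYBL2 (B-Myb), an E2F target that drives later cell cycle genes, read 0.31, -0.67, -0.60 and -1.04, the lowest single value of any of the 36 genes, and both of its probes were above 0 on day 1 and below 0 afterwards. CCNE1 (cyclin E1) read 0.36, -0.086, -0.26 and -0.21. Its 2 probes differed on day 2, at 0.181 and -0.352.

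Sizes past 1.5-fold were few. On day 1 none of the 36 genes was at least 1.5-fold lower, against 10.6% of all features. On day 2 there were 5 (CDC6, MCM2, RFC4, UNG and MYBL2; 13.9%), close to the 12.6% of all features. On day 3 there were 3 (MCM7, FEN1 and MYBL2; 8.33%, against 1.69%), and on day 4 there were 7 (CDC6, MCM2, MCM7, POLA1, PCNA, TK1 and MYBL2; 19.4%, against 2.39%). At least 1.5-fold higher were PAICS on day 1 and CAD on day 2, and no gene on days 3 and 4, where the shares of all features were 7.53%, 6.78%, 3.58% and 4.09% on days 1 to 4.

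**Figure D4:**
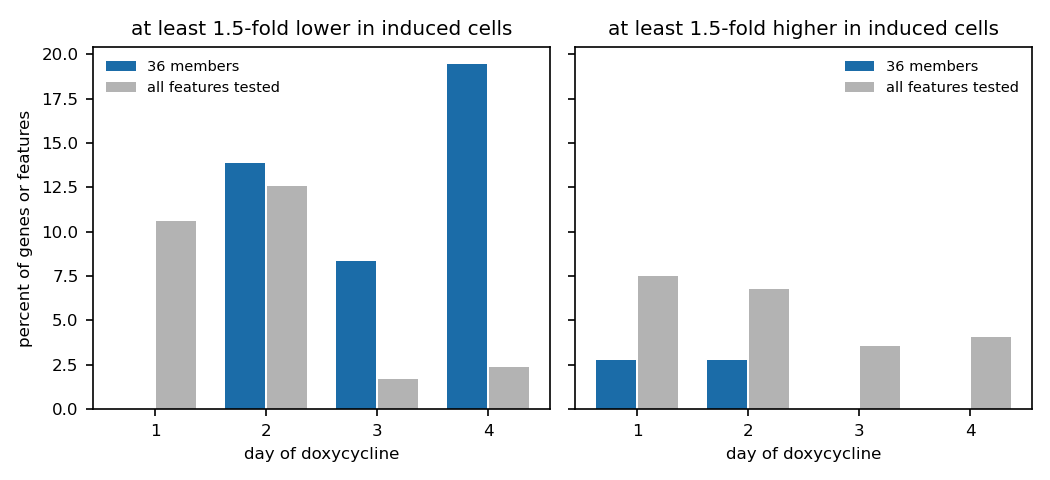
Percent of the 36 genes (blue) and of all features tested (grey) at least 1.5-fold lower (left) or higher (right) in induced cells on each day of doxycycline. The share of the 36 genes is 13.9% on day 2, where all features are at 12.6%, and 19.4% on day 4, where all features are at 2.39%.

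The first test asked whether a gene's mean over the 4 arrays differed from 0. No member passed in either direction (limma, smallest adjusted p = 0.237, for CDC6), where 0.182% of all features passed as lower and 0.156% as higher. In simulated data this test called 0% of features changed by 0.5 log2, so not passing says little about means up to that size. At an unadjusted p under 0.05, 10 of 36 were lower and 0 higher, against 6.0% and 6.47% of all features. These were CDC6, MCM2, MCM5, MCM7, POLA1, POLE2, PCNA, RPA1, FEN1 and UNG. The lowest means were those of MYBL2 at -0.50 ± 0.57, CDC6 at -0.48 ± 0.24, MCM2 at -0.47 ± 0.24 and MCM7 at -0.47 ± 0.47 (SD, 4 arrays; limma adjusted p = 0.405, 0.237, 0.244 and 0.373). MCM5 was at -0.38 ± 0.33, UNG at -0.41 ± 0.14, PCNA at -0.40 ± 0.31, FEN1 at -0.40 ± 0.25, RPA1 at -0.36 ± 0.21 and TK1 at -0.36 ± 0.37. CDC6, MCM2, UNG, PCNA, FEN1 and RPA1 were below 0 on all 4 arrays, while MYBL2, MCM5, MCM7 and TK1 were not, with day 1 as the array above 0. In all, 30 of 36 means were below 0 (83.3%, against 56.0% of all features), with a median of -0.17, against -0.032. The arrays were also weighted by how closely each followed the mean of all 4, which cannot tell a poorer array from a day that differed. With these weights CDC6 (-0.53) and MCM7 (-0.67) passed as lower and 0 members as higher (limma, smallest adjusted p = 0.042), where 1.01% of all features passed as lower and 1.21% as higher. A gene-specific dye bias would remain in these means, since no array had the dyes swapped.

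The second test asked whether values moved with day, where a constant dye bias cancels. No member passed (limma, smallest adjusted p = 0.307, for MYBL2), and 0.0% of all features did. In simulated data it called 0% of features with a slope of 0.5 per day, so not passing says little about slopes up to that size. At an unadjusted p under 0.05, 4 of 36 slopes were negative and 0 positive, against 5.73% and 9.26% of all features: MYBL2 (-0.40 ± 0.14 log2 per day, SE), MCM7 (-0.33 ± 0.107), RPA2 (-0.22 ± 0.041) and ATIC (-0.22 ± 0.043). Each SE is from that gene's own values, while the p-values use limma's moderated error. The moderated t was -3.42 for MYBL2, -3.28 for MCM7, -2.64 for RPA2 and -2.61 for ATIC. Of 36 slopes 33 were below 0, with a median of -0.13 per day, against 45.8% and a median of 0.019 for all features. The median slope rests on the day 1 array. Without it the median was -0.054 per day, and 21 of 36 were below 0. Single genes differed: without day 1 RPA2 was at -0.22 per day, MCM7 at -0.15, ATIC at -0.155 and MYBL2 at -0.18, whereas POLA1 (-0.38), PCNA (-0.375) and RFC3 (-0.23) were steeper than with it. The PCNA slope mixes probes, since probe 24721 (-0.662 and -1.045 on days 3 and 4) had no value on day 2. The RFC3 probes differed over days 2 to 4: 27701 read 0.382, -0.139 and -0.354, while 17200 read -0.503, -0.461 and -0.702. The mean of days 2 to 4 minus day 1, a contrast chosen after the data were seen, had a median of -0.35 and was below 0 in 34 of 36 genes, against 49.4% of all features. It was lowest for MYBL2 (-1.08), PAICS (-0.95), MCM7 (-0.91), TK1 (-0.74) and MCM5 (-0.65). No member passed on it (limma, smallest adjusted p = 0.391), where 0.0156% of all features passed as lower, and at an unadjusted p under 0.05 these 5 did, against 4.68% of all features.

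With days 3 and 4 alone, 10 of 36 members were lower and 0 higher (limma, 2 arrays, adjusted p from 0.0102 to 0.0416), where 3.12% of all features were lower and 3.46% higher. They were MYBL2 at -0.82, MCM7 at -0.78, PCNA at -0.61, POLA1 at -0.58, TK1 at -0.57, CDC6 at -0.57, MCM5 at -0.55, FEN1 at -0.535, RPA1 at -0.52 and MCM2 at -0.51. This count depended on centring: when each array's median, which was within 0.01 of 0 on these days, was subtracted, 1 member was called (MCM7), against 0.67% of all features. With only the probes that had all 4 values, 12 of 35 were called, 9 of them shared with the 10 and PCNA not among them, against 5.72% of all features. With the probe that had the fewest missing values for each gene, 10 of 35 were called, 7 of them shared with the 10 and CDC6, PCNA and TK1 not among them, against 3.97% of all features. With days 1 and 2 alone 0 members passed (limma, smallest adjusted p = 0.274), where 0.0152% of all features were lower. Without the day 1 array, which keeps days 2, 3 and 4, none passed either (limma, smallest adjusted p = 0.208).

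**Figure D5:**
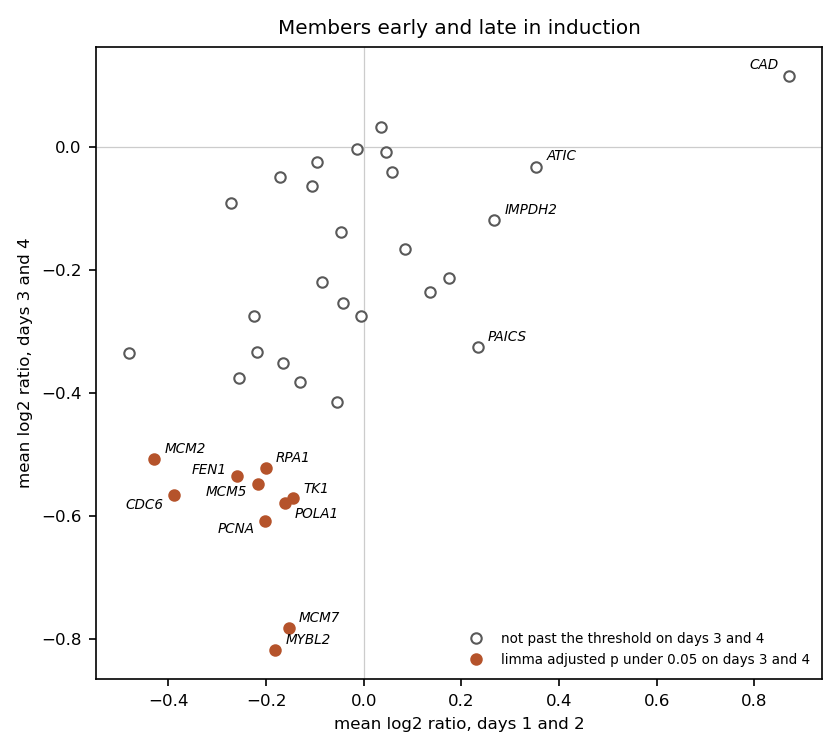
Mean log2 ratio of induced over uninduced cells on days 3 and 4 (vertical axis) against days 1 and 2 (horizontal axis) for the 36 genes; filled points had a limma adjusted p under 0.05 on days 3 and 4. The 10 filled points lie between -0.82 and -0.51 on the vertical axis, and CAD, at 0.87 on days 1 and 2, stands to the right of the rest.

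Signs are given as a description. Of the 36 genes 12 were below 0 on all 4 arrays, against 13.4% of all features: CDC6, MCM2, CDC7, POLE, POLE2, PCNA, RFC3, RPA1, FEN1, UNG, CHAF1A and RRM1. A further 12 were above 0 on day 1 and below 0 on days 2, 3 and 4, against 8.15% of all features: GMNN, MCM4, MCM5, MCM7, PRIM1, POLD2, RRM2, TK1, CTPS1, PAICS, CCNE1 and MYBL2. For MCM4 and PRIM1 the second pattern rests on probes that lack some days: over the probes with all 4 values, MCM4 read 0.134 on day 4 and PRIM1 -0.0375 on day 1. Other signs come from averaging probes of opposite sign. On day 1 these were CDC6 (-0.35 and 0.08), RRM2 (0.418 and -0.234) and CHAF1A (-0.448 for 29902 and 0.302 for 31080). RFC3 probes read -0.503 and 0.382 on day 2, and CDC7 probe 28814 was above 0 on days 2 to 4. Some signs rest on values nearer to 0 than the array median, which was -0.044 on day 1 and -0.068 on day 2. These were POLE2 on day 1 (-0.004) and CDC7 (-0.0027), POLE (-0.061), RFC3 (-0.0605) and GMNN (-0.047) on day 2. Neither pattern is a set of independent observations, since the arrays may share a control preparation.

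Other genes of these pathways, listed by role and not by value, had medians nearer to 0. Of 13 other replication factors 10 had a mean below 0, with a median of -0.11, and 1 was lower at an unadjusted p under 0.05. Of 22 other nucleotide genes 12 were below 0, with a median of -0.032. Of 12 E2F and RB regulators 8 were below 0, with a median of -0.017. CCNA2 (cyclin A2) averaged -0.26 and RBL1 -0.22, while CCND2 (cyclin D2) averaged 0.33. Of 10 replication-coupled repair genes 6 were below 0, with a median of -0.14, and BLM, a DNA helicase of recombination, averaged -0.49. None of these passed (limma, smallest adjusted p = 0.229). The 25 measured genes of G2 and mitosis, which act after S phase, had a median of -0.16, with 24 below 0, and medians of 0.14, -0.26, -0.21 and -0.39 on days 1 to 4. These stand beside 0.086, -0.20, -0.26 and -0.31 for the replication and nucleotide genes, and a difference between the lists was not tested.

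Markers of other cell types and of plasma cells were read beside these genes. Of 14 T cell and myeloid markers 6 had a mean below 0, with a median of 0.070 and daily medians from -0.056 to 0.059. CD5, CD3D and CD14 had the largest moderated statistics among them, with means of -0.42, 0.36 and 0.37. Of 8 plasma cell markers 1 had a mean below 0. Their daily medians of 0.57, 0.70, 0.25 and 0.030 were above 0 throughout and nearest to 0 on day 4. Their part in the result was not tested.

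Promoters are shown for the 4 members with the lowest mean over days 2 to 4 and for CAD, which had the highest, so that the bases around their start sites can be compared. Each runs 5′ to 3′ from 250 bases before to 50 after the RefSeq start (GRCh38.p14). The windows are MYBL2 at chr20:43666864-43667163 on the plus strand, MCM7 at chr7:100101348-100101647 on the minus strand, CDC6 at chr17:40287629-40287928 on the plus strand, MCM2 at chr3:127598161-127598460 on the plus strand and CAD at chr2:27217119-27217418 on the plus strand. Capitals mark matches on either strand to the E2F motif (TTTGGCGC, TTTGCCGC, TTTCGCGC or TTTCCCGC) or to CCAAT, the box bound by NF-Y.
MYBL2: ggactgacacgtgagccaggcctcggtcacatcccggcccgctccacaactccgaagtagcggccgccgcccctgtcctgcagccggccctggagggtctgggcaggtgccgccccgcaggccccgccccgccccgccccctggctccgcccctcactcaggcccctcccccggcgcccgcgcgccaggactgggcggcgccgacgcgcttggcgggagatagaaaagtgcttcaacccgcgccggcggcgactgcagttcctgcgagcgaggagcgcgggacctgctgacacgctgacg
MCM7: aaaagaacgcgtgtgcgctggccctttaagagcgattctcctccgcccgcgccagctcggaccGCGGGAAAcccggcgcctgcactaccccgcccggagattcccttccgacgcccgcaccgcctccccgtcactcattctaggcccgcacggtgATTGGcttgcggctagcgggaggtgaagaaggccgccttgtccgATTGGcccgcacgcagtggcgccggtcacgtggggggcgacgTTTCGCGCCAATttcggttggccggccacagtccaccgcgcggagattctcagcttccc
CDC6: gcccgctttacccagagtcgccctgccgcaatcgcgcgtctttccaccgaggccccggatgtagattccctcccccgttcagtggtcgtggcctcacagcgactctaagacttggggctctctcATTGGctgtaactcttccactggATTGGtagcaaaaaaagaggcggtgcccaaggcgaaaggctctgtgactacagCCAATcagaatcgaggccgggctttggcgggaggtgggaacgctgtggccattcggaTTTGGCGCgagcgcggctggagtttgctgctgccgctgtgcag
MCM2: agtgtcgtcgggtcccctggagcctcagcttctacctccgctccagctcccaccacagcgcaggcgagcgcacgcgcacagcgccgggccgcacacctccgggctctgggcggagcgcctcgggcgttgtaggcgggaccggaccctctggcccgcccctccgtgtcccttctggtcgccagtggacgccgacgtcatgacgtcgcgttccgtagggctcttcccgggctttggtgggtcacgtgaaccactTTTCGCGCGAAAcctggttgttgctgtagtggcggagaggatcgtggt
CAD: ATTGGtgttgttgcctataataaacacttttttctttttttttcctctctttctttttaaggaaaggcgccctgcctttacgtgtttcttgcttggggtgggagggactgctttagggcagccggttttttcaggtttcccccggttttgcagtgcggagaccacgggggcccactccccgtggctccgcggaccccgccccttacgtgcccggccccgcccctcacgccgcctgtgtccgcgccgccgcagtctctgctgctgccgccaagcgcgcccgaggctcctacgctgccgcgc
MCM7 held 2 E2F matches and 3 CCAAT matches, the last of which overlaps an E2F match. CDC6 held 1 and 3. MCM2 held 2 overlapping E2F matches just after its start and no CCAAT. CAD held 1 CCAAT at the far end of the window and no E2F match, and MYBL2 held neither motif, which says only that these letters are not in this window.

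Promoter sequences were found for 51 of the 57 genes. An E2F match was present in 18 of them (35.3%), against 3.33% of 27305 promoters of the same length, and CCAAT in 27 (52.9%), against 35.7%. Of the 31 measured genes with a sequence, 10 held an E2F match: CDC6, CDT1, MCM2, MCM7, PCNA, POLA1, POLA2, POLE, POLE2 and RFC3. The members at -0.4 or lower over days 2 to 4, a split made after values were seen, held an E2F match in 5 of 10 promoters (CDC6, MCM2, MCM7, PCNA and POLE2), and the other measured members in 5 of 21. CDT1 and POLA2 held a match and had means near 0, while TK1, FEN1 and RPA1 were among the lower genes and held none. None of the 6 de novo genes with a sequence held an E2F match. Only the forms of the E2F motif given above were searched, so a promoter without a match may hold another form. A match describes letters in a window and was not related to binding here.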

How the data were processed

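The deposited table holds ratios of the 2 channels per probe, taken here as log2, for 4 two-colour spotted arrays, made by the authors. Their background correction, normalization and spot filter are not stated in the sources used here. Per the labels' protocols, 50 µg of total RNA was labelled per dye. Of 15246 probes, 10169 had 1 symbol, 4 had several and 5073 are unnamed here. Symbols were updated by Entrez identifier (RefSeq, GRCh38.p14, 10128 probes matched). Probes of a symbol were averaged per array, giving 9681 features. The mean against 0 (7713 features with at least 3 values) and the slope on day (6427 with 4) were fitted with limma 3.58.1 in R 4.3.3, two-sided, with Benjamini-Hochberg adjustment over all features and a threshold of 0.05. Both were tested on simulated data. There, changes of 0.5, 1 and 2 log2 were called in 0%, 70.5% and 93.5% of changed features on the mean. For slopes of the same sizes per day the shares were 0%, 78% and 96%. Tables were made in Python 3.11.15. The 4 arrays are different days, not stated to be separate cultures, so a p-value reflects the spread of these arrays alone. Named genes were, per role, up to 4 with the largest moderated statistic on the mean and 2 on the slope, the measured helicase and deoxynucleotide genes, and up to 3 per context list. The members, lists and tests were chosen with earlier results of these data known. Alternatives changed scaling, centring, probe rule, missing-value filter, array weights, arrays and time term.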

Additional observations from a re-analysis of the deposited data

Results flagged for a closer look

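In 3 of 36 genes the day 1 array stood apart from the other 3 arrays, by a gap to the nearest value larger than Dixon's limit for 4 values. MCM5 read 0.105 on day 1 (gap 0.905 of the range), RRM2 read 0.092 (0.839) and TK1 read 0.196 (0.861). The RRM2 value averages probes of opposite sign, at 0.418 and -0.234. Chance flags about 1 in 20 genes at this threshold if the 4 values have equal spread. These arrays did not, with an SD over probes of 0.517, 0.569, 0.345 and 0.380 on days 1 to 4. The share of all features flagged was not counted, so the 3 genes cannot be set against it. The 4 arrays are different days, so a value that stands apart may belong to its day or to its array, and these cannot be told apart.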

How the results depend on the processing

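No paired analysis was possible because the 4 arrays form 1 group, so no groups share replicate numbers; each ratio already sets induced against uninduced RNA. On the mean, the main setting called 14 features lower, 12 higher and 0 members. Array weights called 78 and 93, with 2 members lower (CDC6 at -0.53 and MCM7 at -0.67). Scaling the arrays to the same spread called 3 and 0, days 1 and 2 alone 1 and 0, and days 3 and 4 alone 270 and 299, with 10 members lower. Requiring all 4 values called 23 features higher. Leaving out 1 array in turn called 3 to 4 features lower, 0 to 1 higher and 0 members, and the members' median ran from -0.29 to -0.123. Turning every sign gave a median of 0.17. With days 3 and 4 alone, subtracting array medians left 1 member called. On the slope, 0 members and 0 features passed in the main setting. Days 2 to 4 minus day 1 called 1 feature lower and 1 higher, with a median of -0.35, and days 3 and 4 minus days 1 and 2 gave a median of -0.23. Leaving out 1 array in turn gave median slopes from -0.147 to -0.054, the smallest in size without day 1, where 22 of 36 genes kept their sign. The cause of these shifts was not tested. A filter on dim spots was not tried, since the table holds no intensities.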

Other observations

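Some genes of nucleotide balance and replication outside the 57 are given as values, and none of those named passed (limma, smallest adjusted p = 0.239). TK2, the mitochondrial thymidine kinase, read -0.345, -1.06, -0.31 and -0.515 on days 1 to 4, but its 1 probe with all 4 values read -0.345, -1.06, -0.004 and -0.019, so the averages of days 3 and 4 rest on the other probe. SAMHD1, which breaks down deoxynucleotides, read 0.43, 1.23, 0.29 and 0.13, where its 2 probes with all 4 values averaged 0.097 on day 3 and -0.055 on day 4. CMPK1, which phosphorylates pyrimidine monophosphates, read 0.68, 0.23, 0.082 and 0.55. UHRF1, which keeps DNA methylation through replication, read -0.71, -0.91, -0.11 and -0.36, and its 1 probe with all 4 values read -0.433, -0.517, -0.263 and -0.393. DBF4, the activating subunit of the CDC7 kinase, read 0.495, 0.33, 0.32 and -0.10, while CDC7 itself lay between -0.16 and -0.0028. Among the 57, LIG1, which joins Okazaki fragments, had values on days 3 and 4 alone, at -0.197 and -0.25.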
